A study of Mus musculus with 2 samples.

Results

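Adipoq, Plin1, Cidec, Retn, Cfd, Car3, Scd1 and Fabp4 are 8 genes that fat cells express strongly, taken by symbol from the 32285 genes of the annotation, and all 8 were present. They were chosen with earlier values of these libraries in view, in which Adipoq, Plin1, Car3 and Cfd had been higher in the library of animals given anti-Müllerian hormone. The comparison of the libraries as wholes is therefore a description here. Each gene's UMIs (unique molecular identifiers, each standing for 1 captured RNA molecule) were counted over all barcodes and by class of barcode, to see whether they lay in a few barcodes or were spread over all.

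The cells came from uteri of mice. One group, DOX, received doxorubicin, a DNA-damaging chemotherapy drug, at 3 mg/kg. The other group, DOX plus AMH, received doxorubicin at 3 mg/kg together with anti-Müllerian hormone at 0.75 mg/kg. Both groups thus carried the drug, and untreated animals were not analysed here. The tissue was taken at 4 h, uteri of 5 animals were pooled per group, and 1 library was made from each pool, so the design has no replicates and allows no test. The series text describes 2 weekly doses and prepubertal mice, postnatal day 25, in its bulk experiment, and the age and schedule of the animals used for single cells are not given in the sources used here. In paired values DOX comes first, and each log2 ratio has DOX plus AMH on top. Intervals are 95% intervals that cover counting error only, not the spread between animals, pools or cells.

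White fat cells store triglyceride in 1 large lipid droplet and secrete hormones called adipokines. Perilipin 1 (Plin1) coats the droplet and gates lipolysis, and Cidec (also called Fsp27) lets droplets fuse and grow. Adiponectin (Adipoq), resistin (Retn) and adipsin (Cfd, complement factor D) are secreted. Scd1 desaturates newly made fatty acids, Fabp4 carries fatty acids in the cytosol, and Car3 is a carbonic anhydrase abundant in fat, liver and slow muscle. Several of these are not limited to fat cells: Fabp4 is also made by capillary endothelium and macrophages, Scd1 by many lipid-making cells, including those of sebaceous glands, and Cfd by other tissues. The uterus lies in the abdomen beside fat of the broad ligament and mesentery, so a dissected uterus can carry some.

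The 8 genes lie on 7 chromosomes of the mouse. In the GENCODE M21 annotation of GRCm38, the assembly also called mm10, the adipokine genes are Adipoq at chr16:23146536-23158028 on the plus strand, Retn at chr8:3655770-3660110 (plus) and Cfd at chr10:79890853-79892655 (plus). The droplet genes are Plin1 at chr7:79720218-79732903 (minus) and Cidec at chr6:113424634-113435760 (minus). The enzymes are Car3 at chr3:14863512-14872523 (plus) and Scd1 at chr19:44394455-44407879 (minus), and the carrier Fabp4 is at chr3:10204088-10208576 (minus). No annotated gene overlaps any of them on either strand. RefSeq promoter windows on GRCm38.p6 were at hand for 5 of the 8 genes, 6 windows in all, because Cidec has 2 annotated starts. Those of Adipoq, the second Cidec start and Cfd are shown, 250 bases up to the transcription start and read 5′ to 3′ on the gene's strand, for an adipokine and a droplet protein restricted to fat cells and for the adipokine with the most UMIs. They stand at chr16:23146286-23146535 (plus), chr6:113434765-113435014 (minus) and chr10:79890603-79890852 (plus), and capitals mark matches to CCAAT in Adipoq and to TTNNGCAA in Cidec, on either strand.

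Adipoq promoter: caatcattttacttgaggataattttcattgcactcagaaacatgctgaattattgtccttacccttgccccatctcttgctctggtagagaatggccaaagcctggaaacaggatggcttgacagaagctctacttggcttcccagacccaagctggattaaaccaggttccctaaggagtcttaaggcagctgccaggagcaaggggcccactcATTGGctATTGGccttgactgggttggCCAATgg
Cidec promoter: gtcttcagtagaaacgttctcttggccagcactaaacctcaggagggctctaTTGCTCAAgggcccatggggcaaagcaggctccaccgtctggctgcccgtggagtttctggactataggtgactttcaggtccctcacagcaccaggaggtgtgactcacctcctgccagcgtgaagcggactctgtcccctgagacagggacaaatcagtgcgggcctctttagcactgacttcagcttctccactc
Cfd promoter: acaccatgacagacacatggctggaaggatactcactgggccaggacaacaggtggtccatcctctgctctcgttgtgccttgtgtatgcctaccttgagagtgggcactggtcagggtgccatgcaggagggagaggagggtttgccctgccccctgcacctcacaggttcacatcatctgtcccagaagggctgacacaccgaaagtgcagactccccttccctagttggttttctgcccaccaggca

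TTNNGCAA is a form of the site of C/EBP factors, which drive fat cell differentiation. It occurred once in the Cidec window shown, 198 bases before the start, and at 187 and 58 bases before the start in the Plin1 window, which is not shown. Of the 250 bases of the Plin1 window 127 lie in GENCODE exons, so the match at 58 lies within the annotated Plin1 gene. TTNNGCAA had 0 matches in the windows of Adipoq, Retn, Cfd and the first Cidec start, while 9.56% of all 32851 windows of this length held it. The Adipoq window held CCAAT at 34, 27 and 7 bases before the start, counted to each match's first base, and 33.8% of all windows held CCAAT. The matches do not overlap one another in these windows. A match describes the letters only.

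All 8 genes had a higher level in the DOX plus AMH library. Adiponectin (Adipoq) had 63 and 301 UMIs, or 0.486 CPM (0.374 to 0.622; UMIs scaled to a library total of 1000000) and 3.07 CPM (2.74 to 3.44), a log2 ratio of 2.66 (2.26 to 3.08). Resistin (Retn) had 245 and 884 UMIs, 1.89 and 9.03 CPM (log2 ratio 2.26, 2.05 to 2.47). Adipsin (Cfd) had 2355 and 6249 UMIs, 18.2 and 63.8 CPM (log2 ratio 1.81, 1.74 to 1.88). So the 3 secreted products were 3.51-fold (Cfd) to 6.32-fold (Adipoq) higher, values that turn on single barcodes. With a stricter barcode filter (at least 2000 UMIs, 1000 genes and at most 10% mitochondrial UMIs) the log2 ratio was -0.45 (-0.55 to -0.35) for Cfd and -0.24 (-0.55 to 0.06) for Retn, and 0.73 (0.21 to 1.25) for Adipoq. Without the barcode of each library with the most UMIs of the 8 genes it was 5.40 for Cfd, 4.40 for Retn and 4.56 for Adipoq. The droplet proteins were the scarcest. Plin1 had 42 and 156 UMIs, 0.324 and 1.59 CPM (log2 ratio 2.30, 1.80 to 2.82). Cidec had 33 and 196 UMIs, 0.255 and 2.0 CPM (log2 ratio 2.97, 2.44 to 3.55). The carbonic anhydrase gene Car3 had 554 and 2774 UMIs, 4.28 and 28.3 CPM (log2 ratio 2.73, 2.60 to 2.86). These levels are per library and per UMI, not per cell, and fewer fat cells and less RNA per fat cell cannot be told apart from them. The desaturase Scd1, at 1338 and 2207 UMIs or 10.3 and 22.5 CPM, had the lowest ratio (log2 1.13, 1.03 to 1.23). The fatty acid carrier Fabp4 had the highest level, 4122 and 11383 UMIs or 31.8 and 116 CPM (log2 ratio 1.87, 1.82 to 1.92). Thus 8 of the 8 genes were at least 2-fold higher, against 9.89% of the 21339 genes with at least 20 UMIs in both libraries together. These ratios come from the contrast the genes were chosen on, so nothing is read from that count. The stricter filter also brought Scd1 to 0.22, Plin1 to 1.51, Cidec to 1.67 and Car3 to 1.84, and leaving out the barcode with the most brought Car3 to 3.52 and Plin1 to 2.90. With TMM scaling, which lowers every log2 ratio by 0.14, Scd1 came to 0.98 and fell under 2-fold.

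**Figure D1:**
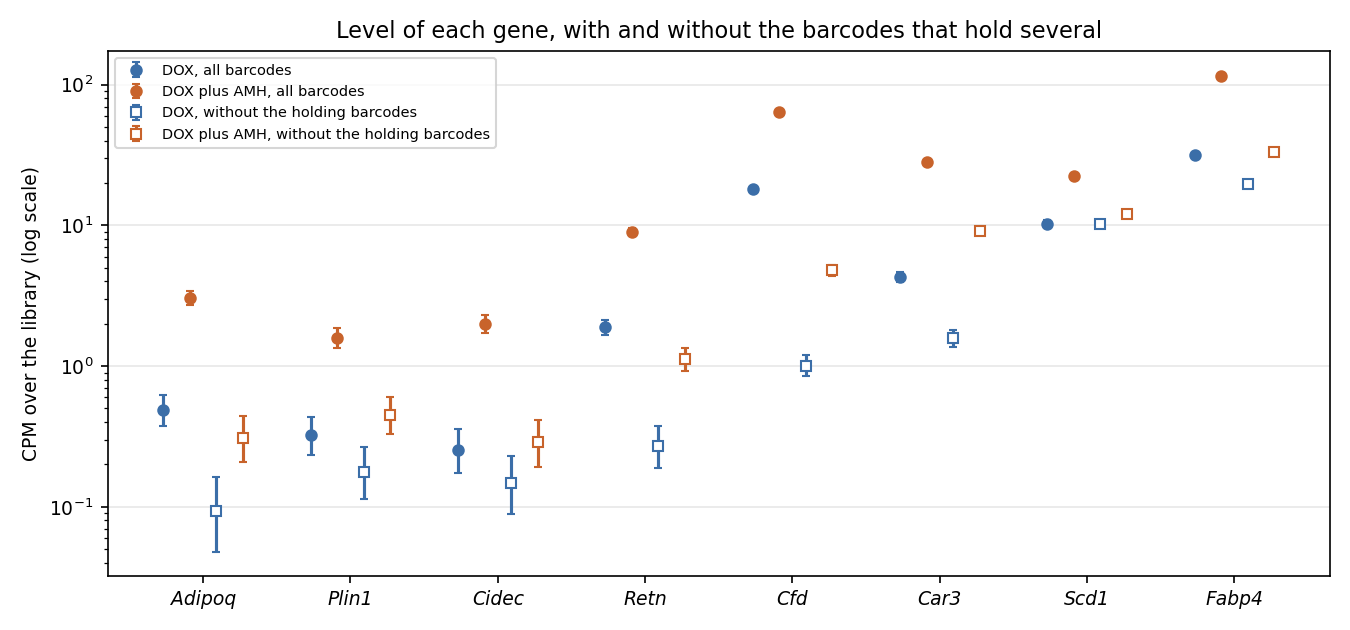
Level of each gene in CPM on a log axis, in DOX (blue) and DOX plus AMH (orange), over all barcodes (filled circles) and without the 4 and 14 barcodes that hold several of the genes (open squares), with exact Poisson intervals for counting error. Leaving those barcodes out lowers the DOX plus AMH level of Cfd from 63.8 to 4.80 CPM but that of DOX Scd1 not visibly (10.3 CPM both ways).

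The libraries held 9258 and 8083 barcodes with medians of 12674 and 9397 UMIs, and 7783 and 7065 of these passed a filter on depth, genes and mitochondrial share. The libraries shared 17 barcode sequences, 0 of them among the barcodes described next. Beside the 8 genes, marker lists of other tissues differed between the libraries: 5 of 5 erythroid markers were detected in both, at 492 and 14812 CPM summed, and 7 of 7 squamous keratin markers at 24.2 and 2291 CPM. Vascular endothelial markers (7 of 7 detected), whose cells can make Fabp4, were at 182 and 287 CPM summed, with 114 and 207 barcodes in that class. Skeletal muscle markers (7 of 7 detected) were at 29.9 and 25.6 CPM and sebaceous gland markers (6 of 6) were at 14.6 and 17.7 CPM. The part of erythroid, squamous and vascular RNA in the levels of the 8 genes was not tested, beyond leaving out the barcodes gated as squamous keratin, which gave 2.01 for the log2 ratio of the 8 genes' summed UMIs against 1.87 (1.83 to 1.90) with them.

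Of each gene but Scd1, 50% of the UMIs lay in at most 5 barcodes of either library. A single DOX barcode held 2199 of the 2355 Cfd UMIs (93.4%), 200 of the 245 Retn UMIs (81.6%), 49 of the 63 Adipoq UMIs (77.8%) and 294 of the 554 Car3 UMIs (53.1%). The barcode with the next most Cfd held 14. In DOX plus AMH the highest barcode held 34.1% of Cfd, 32.2% of Adipoq and 30.9% of Retn, and 3 barcodes had over 1000 Cfd UMIs each (2130, 1283 and 1228). It took 2 barcodes there to reach 50% of the Cfd UMIs and 10 to reach 90%, against 1 and 1 in DOX. Scd1 was spread out instead: 50% of its DOX UMIs took 450 barcodes and 90% took 986, with a highest value of 5 UMIs in any barcode. In DOX plus AMH 50% of Scd1 took 20 barcodes, because 2 barcodes held 477 and 403 of its 2207 UMIs. Fabp4 stood between, with 50% of its UMIs in 4 and 5 barcodes and 90% in 19 and 30.

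**Figure D2:**
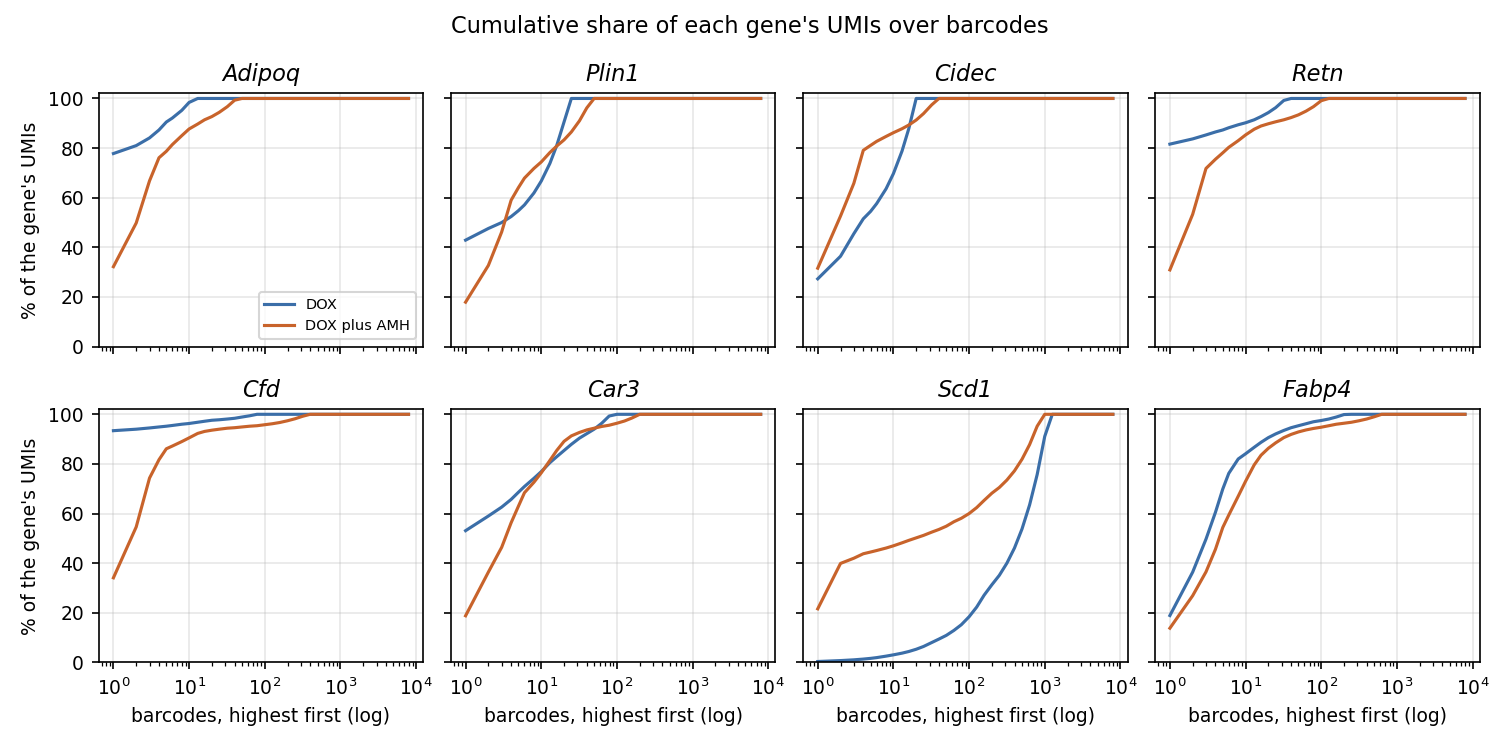
Cumulative percent of each gene's UMIs (y axis) over barcodes ranked from the highest down (x axis, log scale), DOX in blue and DOX plus AMH in orange. The DOX curve of Cfd starts at 93.4% with its first barcode, while that of Scd1 stays near 0 over the first 10 barcodes and reaches 50% at barcode 450.

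Barcodes that hold several of the genes were taken as those with at least 2 UMIs each of at least 2 of Adipoq, Plin1, Cidec and Retn, the 4 most restricted to fat cells. There were 4 in DOX and 14 in DOX plus AMH, 18 in all, and 12 of them passed the barcode filter. They made up 0.0336% and 0.358% of all UMIs of their library, yet held 51 of 63 and 271 of 301 Adipoq UMIs, 85.7% and 87.7% of Retn, 94.4% and 92.5% of Cfd and 63.2% and 67.7% of Car3. For the droplet genes they held 45.2% and 71.8% of Plin1 and 42.4% and 85.7% of Cidec. Fabp4 was at 37.7% and 71.4%. Scd1 was the exception in DOX, with 0.374% there and 46.9% in DOX plus AMH. Adipoq, Plin1, Cidec and Retn chose these barcodes, so their shares only describe the choice, while Cfd, Car3, Scd1 and Fabp4 did not enter it. Just outside the rule, 8 and 17 barcodes had 1 of the 4 genes at 2 UMIs or more. The summed UMIs of the 8 genes were at least 28 and 80 inside the rule, and at most 450 and 230 among barcodes that nearly met it, of which 444 were Fabp4 in a vascular endothelial-like barcode and 187 Car3 in a stromal-like one.

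After their values were seen, the 18 barcodes were described in 3 kinds: 5 with at least 10000 UMIs and fewer than 3 of the 7 vascular endothelial markers, 6 with at least 3 of those markers, and 7 shallow ones. The first kind had 1 barcode in DOX and 4 in DOX plus AMH. Of 6 further fat cell genes that no rule had used (Lep, Lipe, Plin4, Adig, Trarg1 and Acvr1c), 4 to 5 were detected in each of these 5. The barcodes with vascular endothelial markers held 1 to 5 of the same 6, so this count does not set the kinds apart, and the shallow ones held 0 to 2. Leptin (Lep) was at 0 in the 5 deep barcodes, and had 9 and 3 UMIs in the whole libraries. The DOX barcode had 25027 UMIs, of which 13.9% came from the 8 genes: Cfd 2199, Fabp4 721, Car3 294, Retn 200, Adipoq 49, Plin1 18 and Cidec 9 UMIs, with Scd1 at 0. Its mitochondrial share was 4.07%, it held 0 of 7 vascular and 0 of 7 macrophage markers, and 2 of 8 stromal markers.

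In DOX plus AMH the deep barcodes were not alike. The deepest, of 48936 UMIs, held Cfd 2130, Adipoq 97, Retn 198, Car3 490 and Scd1 403 UMIs, and it also held 7 of 8 stromal markers. Whether that barcode holds 1 cell was not tested. The next, of 25771 UMIs, held Cfd 1228, Retn 273, Adipoq 53 and Scd1 46 UMIs with 0 of 8 stromal markers. A barcode of 19865 UMIs held Cfd 276, Car3 275, Adipoq 28, Plin1 28 and Cidec 26 UMIs, but only 9 of Retn and 0 of Scd1. The last, of 14462 UMIs, held Cfd 464 and Fabp4 481 with 8 of Adipoq, 8 of Plin1, 1 of Retn and 0 of Cidec. Per 10000 UMIs of the barcode, Cfd was 879 in the DOX barcode and 139 to 477 in the 4 of DOX plus AMH, and Adipoq 19.6 against 5.53 to 20.6. Adipoq per barcode thus overlapped between the libraries, and the DOX barcode had the highest Cfd of the 5.

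The lipid synthesis genes were also set beside Scd1 in these 5 barcodes, which were split by Scd1 after its values were seen. Per 10000 UMIs, 7 of the 14 genes of fatty acid and triglyceride synthesis were higher in both barcodes with the most Scd1 than in the 3 others (Fasn, Acly, Elovl6, Me1, Dgat2, Pcx and Thrsp), and 7 were not (Acaca, Dgat1, Gpam, Agpat2, Lpin1, Pck1 and Scd2). The share of all genes that meets this rule was not counted, so nothing is read from the 7. Fasn had at least 36.4 in the 2 barcodes and at most 4.03 in the 3 others, while Dgat2 had 2.33 and 2. Fatty acid synthase (Fasn) had 178 and 195 UMIs in the barcodes of 48936 and 25771 UMIs and 6 UMIs in the DOX barcode. ATP citrate lyase (Acly), which supplies acetyl-CoA, had 73 and 82 UMIs against 0, and Thrsp, a gene that rises with lipogenesis, 84 and 55 against 4. In the barcodes of 14462 and 19865 UMIs Fasn was at 4 and 8 and Acly at 0 and 0, close to the DOX barcode. So DOX plus AMH held both patterns, and DOX had 1 deep barcode only, which leaves no spread to compare. The brown fat gene Ucp1 had 0 UMIs in all 18 barcodes, while Cox8b, a muscle and brown fat form of a cytochrome oxidase subunit, had 18 in the DOX barcode and 7 to 36 in the 4 of DOX plus AMH.

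**Figure D3:**
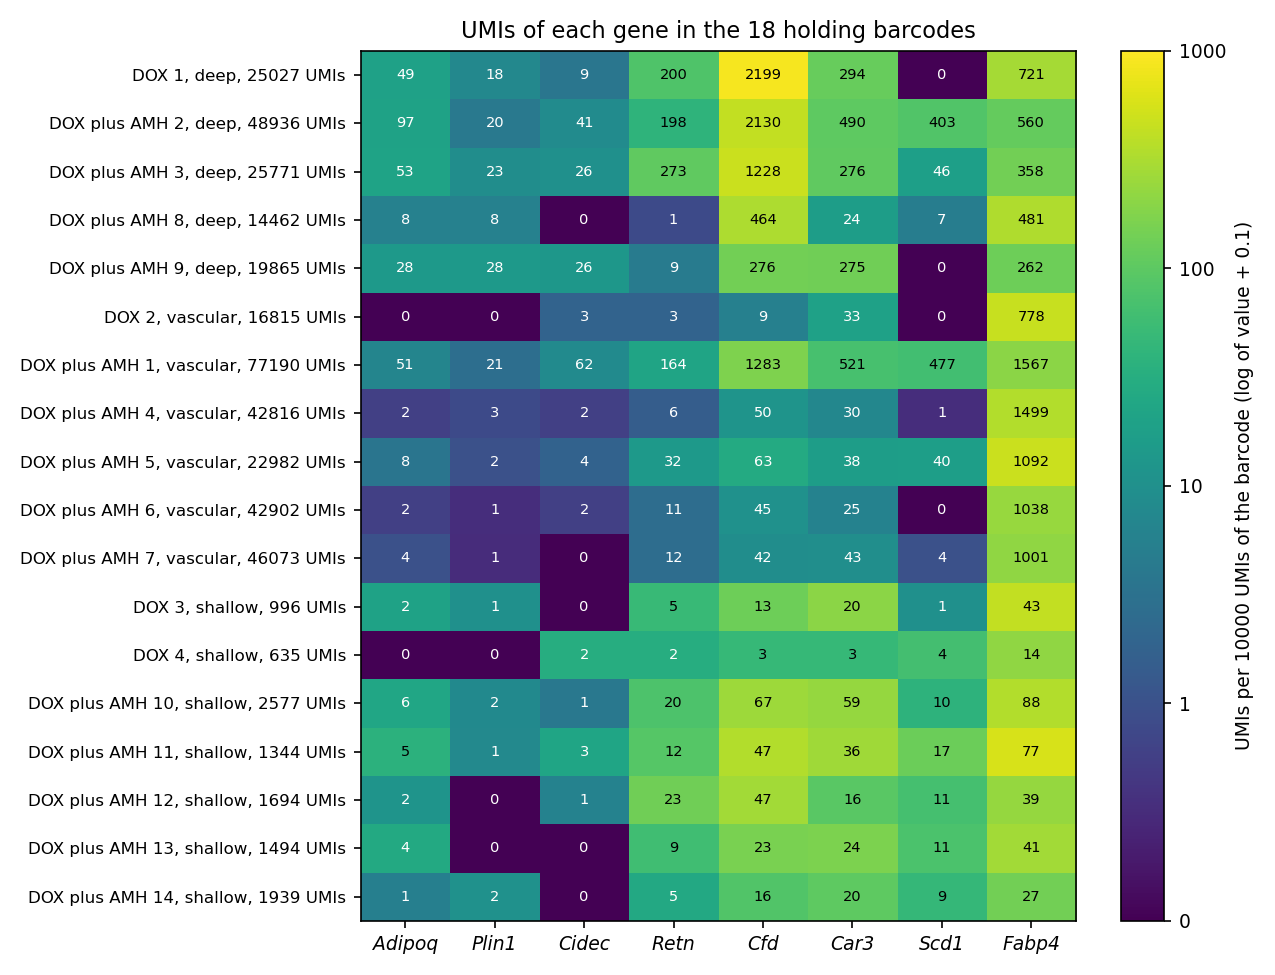
UMIs of each gene (numbers) in the 18 barcodes that hold several of them, coloured by UMIs per 10000 UMIs of the barcode on a log scale, and ordered by kind. Scd1 is at 0 in the deep DOX barcode and at 403 UMIs in a deep one of DOX plus AMH, and Fabp4 is high across the barcodes with vascular endothelial markers.

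The barcodes with vascular endothelial markers, 1 and 5, were led by Fabp4. They held 7 of 7 vascular markers each. In the DOX one Fabp4 had 778 UMIs, beside 33 of Car3, 9 of Cfd, 3 of Retn, 3 of Cidec and 0 of Adipoq. In 4 of the 5 in DOX plus AMH, Fabp4 had 1499, 1092, 1038 and 1001 UMIs with 42 to 63 of Cfd and 2 to 8 of Adipoq. The fifth, the deepest at 77190 UMIs, held 1567 of Fabp4 with 1283 of Cfd, 477 of Scd1 and 51 of Adipoq, and also 7 of 8 stromal and 6 of 7 macrophage markers, and whether it holds 1 cell was not tested. All 6 held UMIs of Gpihbp1, which anchors lipoprotein lipase on capillary walls (24 to 51 UMIs), and of Rbp7, a retinol-binding protein of endothelium (1 to 84). The glycerol channel gene Aqp7 followed them, with 39 of its 40 UMIs among the holding barcodes. The 7 shallow barcodes had 635 to 2577 UMIs, of which 4.13% to 14.7% came from the 8 genes, and mitochondrial shares of 4.39% to 41.0%. In them Cfd reached 3 to 67 UMIs and Fabp4 14 to 88.

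Without the 18 barcodes the 8 genes were still higher in DOX plus AMH, by less for 7 of them. At least 2-fold higher were 5 of the 8, Adipoq, Plin1, Retn, Cfd and Car3, against 9.74% of the 21331 genes measured that way. As above, these ratios come from the contrast the genes were chosen on, so nothing is read from that count. Leaving out 8 barcodes with 30 or more Car3 UMIs as well brought the log2 ratio of Plin1 to 0.84 and of Car3 to 0.79. With only the 18 left out, Adipoq was down to 12 and 30 UMIs, 0.0927 and 0.308 CPM (log2 ratio 1.73, 0.72 to 2.83), Plin1 to 23 and 44 UMIs (log2 ratio 1.34) and Cidec to 19 and 28 (log2 ratio 0.97, 0.08 to 1.89). Cfd, at 131 and 468 UMIs or 1.01 and 4.80 CPM, had a higher ratio than with them (log2 ratio 2.25, 1.96 to 2.54). Scd1 came closest to equal, at 10.3 and 12.0 CPM (log2 ratio 0.22, 0.11 to 0.34). Fabp4 was 19.8 and 33.4 CPM (log2 ratio 0.75, 0.68 to 0.83).

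These leftover UMIs were then counted by class. A barcode's class was the one with the highest share of its markers at 2 UMIs or more, with none of the 8 genes used, and 6 classes had at least 50 barcodes in both libraries. Cfd was low in 5 of them, at most 0.593 CPM in DOX and from 1.3 to 4.61 CPM in DOX plus AMH: stromal-like 0.561 and 4.61 CPM, smooth muscle-like 0.550 and 4.14, epithelial-like 0.288 and 1.3, mesothelial-like 0.593 and 2.41 and macrophage-like 0 and 2.23 CPM, where a count of 0 allows up to 1.39 CPM. Vascular endothelial-like barcodes had 9.11 and 4.80 CPM, from 17 and 16 UMIs. The squamous keratin-like barcodes, almost all of DOX plus AMH (3 and 360), were at 1.73 CPM there. Shares of barcodes with a Cfd UMI, each thinned to 2000 UMIs, were 0.159% (0.0685 to 0.312) and 0.957% (0.671 to 1.32) for stromal-like barcodes, and 0% (up to 0.267%) and 0.660% (0.302 to 1.25) for smooth muscle-like ones. Unthinned they were 0.649% and 4.68%, and 0.519% and 3.60%, at median depths of 14868 and 10247 and of 10918 and 9196 UMIs, and thinning left out 43 and 25 and 32 and 25 shallower barcodes. In epithelial-like barcodes, a type that should lack Cfd, the thinned shares were 0% (up to 1.04%) and 1.09% (0.132 to 3.87), and the unthinned ones 1.38% and 5.43% at medians of 30019 and 31153 UMIs. These epithelial shares rest on 0 of 289 and 2 of 184 barcodes, which sets no narrow level to compare with. Per UMI of the class, Cfd in DOX plus AMH was higher in stromal-like (3.99 to 5.30 CPM) and smooth muscle-like (3.16 to 5.33) than in epithelial-like barcodes (0.671 to 2.27), which were deeper. Whether free RNA gave the UMIs of these classes was not tested.

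Retn and Adipoq were scarcer still. In stromal-like barcodes Retn had 13 and 44 UMIs and Adipoq 4 and 13, and no such barcode had more than 5 of Retn or 2 of Adipoq. Retn per Cfd UMI was 0.289 and 0.222 in stromal-like barcodes, 0.125 and 0.150 in smooth muscle-like ones, and 0.235 and 0.188 in vascular endothelial-like barcodes. It was higher in classes with few UMIs of either gene: 2.0 (from 2 and 1 UMIs) and 1.0 (7 and 7) in mesothelial-like barcodes and, in DOX plus AMH, 0.6 (3 and 5) in macrophage-like and 0.562 (9 and 16) in squamous keratin-like ones. Among the holding barcodes it was 0.0910 and 0.117 in the deep ones and 0.438 and 0.345 in the shallow ones. In those with vascular endothelial markers it was 0.333 (from 3 and 9 UMIs) and 0.152. Stromal-like barcodes had 5 of the 6 genes with enough UMIs at least 2-fold higher in DOX plus AMH (Plin1, Retn, Cfd, Car3 and Fabp4), against 6.78% of 18747 genes there. Nothing is read from that count either, as the genes were chosen on this contrast.

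Outside the holding barcodes Cfd and Retn were at their highest in the shallowest barcodes. In barcodes of 500 to 1000 UMIs Cfd was 54.9 CPM (37.3 to 77.9) and 196 CPM (149 to 254). In those of at least 20000 UMIs it was 0.296 and 1.79 CPM. Retn was 17.7 and 41.3 CPM in the shallowest group and 0.0988 and 0.644 CPM in the deepest. The DOX values of the shallowest group rest on few barcodes. A barcode of 755 UMIs held 14 of its 31 Cfd UMIs and 4 of its 10 Retn UMIs. Barcodes of 768 and 533 UMIs held 5 and 4 of these Cfd UMIs and 1 and 2 of these Retn UMIs. Scd1 stayed within 7.11 to 11.1 CPM in DOX at every depth, and went from 44.8 to 10.7 CPM in DOX plus AMH. In DOX the fall was not even, with Cfd at 2.79 CPM from 1000 to 2000 UMIs and 12.4 CPM from 2000 to 5000. Car3 and Fabp4 did not fall throughout: Car3 in DOX plus AMH went from 107 CPM in the shallowest group to 4.62 CPM and then to 13.4 CPM in the deepest. Fabp4 in DOX was 12.5 CPM from 1000 to 2000 UMIs and 284 CPM from 2000 to 5000. In the latter group barcodes of 3604 and 3932 UMIs held 260 and 177 of its 550 Fabp4 UMIs. Barcodes under 500 UMIs, which would give the free RNA directly, were not analysed here.

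**Figure D4:**
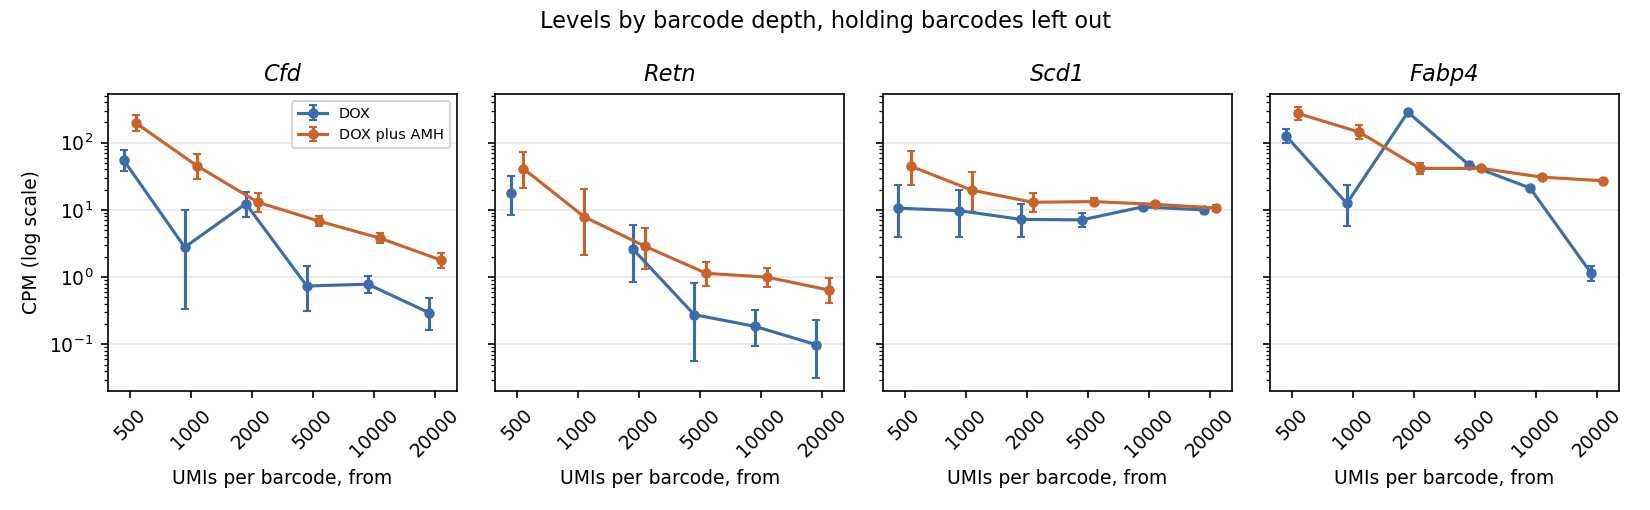
CPM (log axis) of Cfd, Retn, Scd1 and Fabp4 in barcodes grouped by depth (x axis, lower bound of each group in UMIs), holding barcodes left out, with exact Poisson intervals; a group with a count of 0 has no point. Cfd falls from 54.9 and 196 CPM in the shallowest group to 0.296 and 1.79 CPM in the deepest, and DOX Scd1 stays between 7.11 and 11.1 CPM.

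Car3 was also high in some barcodes that had Adipoq at 0. Without the holding barcodes, 8 barcodes of DOX plus AMH had 30 or more Car3 UMIs, 631 in all or 70.3% of what was left, against 0 barcodes in DOX, where the highest had 17. The 2 highest had 187 and 149 Car3 UMIs, in a stromal-like and a smooth muscle-like barcode. They held 0 of Cfd and 0 of Adipoq, but 2 and 1 of Plin1 and 38 and 1 of Fabp4. Holding barcodes, left out here, were chosen partly on Adipoq, which favours low Adipoq among the rest. Of the 8, 6 were stromal-like, 1 smooth muscle-like and 1 without a class. Adipoq was at 0 in 8 of them, Cfd in 7 and Plin1 in 3. All 8 held Fabp4, 160 UMIs in all, and their Plin1 came to 13 UMIs. The 1 without a class had 21 UMIs of Cfd and 73 of Fabp4. Over the whole stromal-like class Car3 was 1.03 and 12.6 CPM, and over the smooth muscle-like class 1.38 and 13.1 CPM. Per Cfd UMI it came to 1.84 and 2.73 among stromal-like barcodes and 2.50 and 3.15 among smooth muscle-like ones. In DOX plus AMH the Car3-high barcodes gave 426 of the 540 and 149 of the 189 Car3 UMIs of these 2 classes. Car3 per Cfd UMI varied among the holding barcodes. It was 0.134 and 0.260 in the deep ones, 3.67 and 0.443 in those with vascular endothelial markers and 1.44 and 0.775 in the shallow ones. Leaving the 8 out as well brought the log2 ratio of Car3 from 2.55 (2.32 to 2.77) down to 0.79. Mesothelial-like barcodes went the other way, with 17 and 11 Car3 UMIs, or 10.1 and 3.78 CPM (log2 ratio -1.41, -2.65 to -0.24).

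Scd1 was spread over the uterine classes, in contrast to the other genes. Outside the holding barcodes 1117 and 889 barcodes had a UMI of it, 945 and 719 of them exactly 1. Its level was highest in mesothelial-like barcodes, 24.9 and 41.6 CPM (log2 ratio 0.74, 0.22 to 1.28). Stromal-like barcodes followed at 13.1 and 16.3 CPM (log2 ratio 0.31, 0.17 to 0.45), then epithelial-like at 7.06 and 11.6 CPM (log2 ratio 0.71, 0.30 to 1.12) and smooth muscle-like at 3.78 and 5.80 CPM (log2 ratio 0.62, 0.11 to 1.13). Macrophage-like barcodes had 1 and 4 UMIs. Vascular endothelial-like ones had 5 and 19 UMIs, or 2.68 CPM (0.87 to 6.25) and 5.70 CPM (3.43 to 8.89). These intervals overlap the smooth muscle-like ones, 2.85 to 4.93 and 4.63 to 7.18 CPM. The order of the mesothelial-like, stromal-like, epithelial-like and smooth muscle-like classes was the same in both libraries. Among these 4 the Poisson intervals of neighbours in that order overlapped in neither library. Thinned to 2000 UMIs, 2.81% (2.38 to 3.31) and 3.59% (3.02 to 4.23) of stromal-like barcodes had a Scd1 UMI, against 0.712% (0.308 to 1.40) and 0.954% (0.509 to 1.63) of smooth muscle-like ones. In mesothelial-like barcodes the thinned shares were 4.35% (0.906 to 12.2) and 11.3% (5.99 to 18.9), from 69 and 106 barcodes, and these intervals overlap. The epithelial-like ones, 1.73% (0.564 to 3.99) and 2.17% (0.595 to 5.47), overlap the stromal-like and smooth muscle-like intervals in both libraries. In DOX the mesothelial-like interval overlaps the stromal-like one too, so thinned shares set these neighbours less apart than the levels do. Unthinned, the shares were 17.8% and 15.3% for stromal-like barcodes, 4.16% and 5.40% for smooth muscle-like ones, 22.8% and 26.1% for epithelial-like ones and 31.9% and 55.7% in mesothelial-like barcodes.

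**Figure D5:**
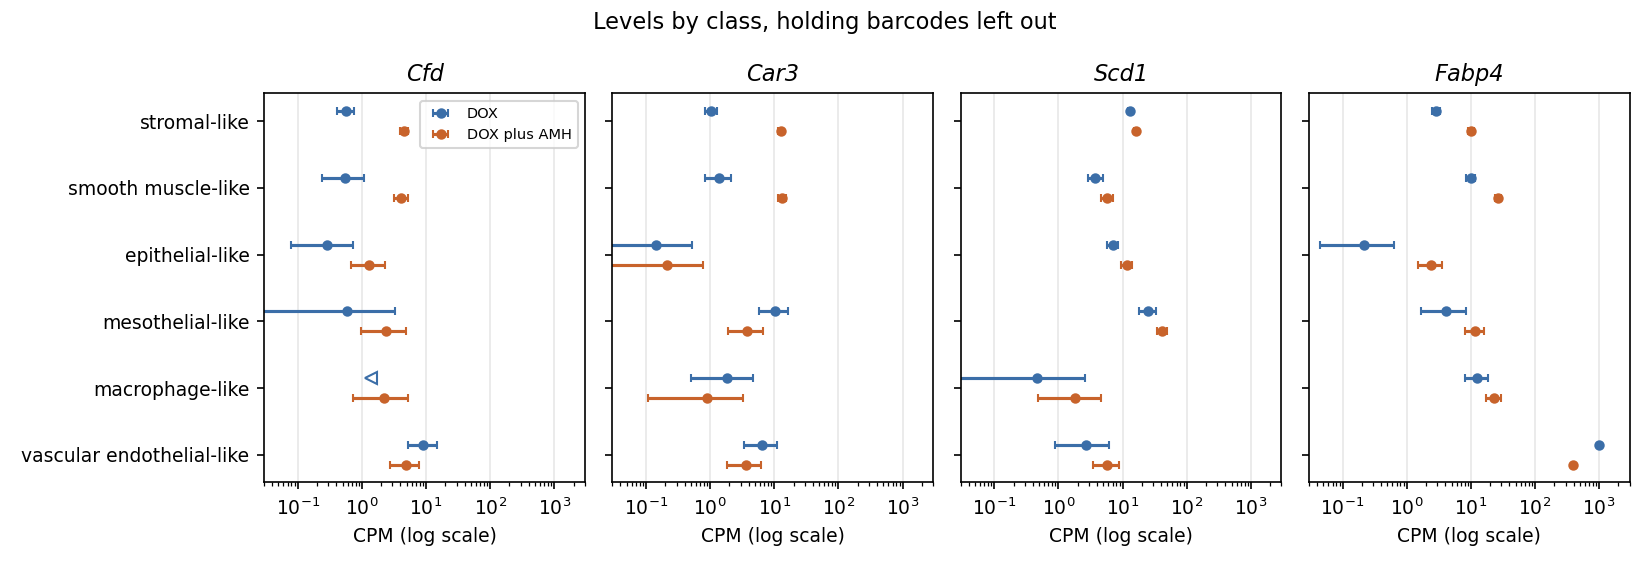
CPM (log axis) of Cfd, Car3, Scd1 and Fabp4 in 6 classes without the holding barcodes, DOX in blue and DOX plus AMH in orange, with exact Poisson intervals for counting error; an open triangle marks the level that a count of 0 allows. Fabp4 reaches 995 and 392 CPM in vascular endothelial-like barcodes and is at most 26.6 CPM in the 5 other classes.

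Fabp4 had its highest level of the compared classes in vascular endothelial-like barcodes. In vascular endothelial-like barcodes (113 and 203 without the holding ones) it was 995 and 392 CPM, lower in DOX plus AMH (log2 ratio -1.34, -1.45 to -1.24). The interval covers counting error only and does not hold the spread between barcodes, which was wide: 8 and 23 of these barcodes had any Fabp4 UMI, and the 5 highest held 98.1% and 93.7% of its UMIs. Without those 5 the levels were 19.2 and 25.2 CPM. With the holding barcodes of the class (1 and 4) they were 1399 and 1809 CPM, so the direction depends on single barcodes. The 5 DOX barcodes with at least 100 Fabp4 UMIs outside the holding set were all vascular endothelial-like and all 5 held Cd36, Gpihbp1 and Rbp7. Of 7 such barcodes in DOX plus AMH, 4 were vascular endothelial-like, 2 lymphatic endothelial-like and 1 smooth muscle-like, and 7 of 7 held Cd36 and Gpihbp1. Lymphatic endothelial-like (76 and 39) and pericyte-like barcodes (18 and 30) did not reach 50 in both libraries and were not compared. Their Fabp4 was 0 (up to 1.82) and 497 CPM, and 96.9 and 458 CPM, in DOX plus AMH above the vascular 392 CPM. In DOX plus AMH 2 lymphatic endothelial-like barcodes held 187 and 174 of the 366 UMIs of that class.

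In the 5 other classes compared Fabp4 was lower by more than 10-fold, and each had a higher level in DOX plus AMH. That gap rests on the 5 highest vascular endothelial-like barcodes of each library, without which that class was at 19.2 and 25.2 CPM. In stromal-like barcodes Fabp4 was 2.87 and 10.1 CPM (log2 ratio 1.82, 1.58 to 2.05), and in smooth muscle-like ones 9.91 and 26.6 CPM (log2 ratio 1.42, 1.14 to 1.71). In epithelial-like barcodes it was 0.216 and 2.38 CPM, from 3 and 22 UMIs (log2 ratio 3.46, 1.73 to 5.85). Macrophage-like barcodes, a type known to make it, had 12.5 and 22.8 CPM, of which single barcodes gave 22 of 27 and 31 of 51 UMIs. Mesothelial-like barcodes had 4.15 and 11.7 CPM. After thinning, 0.377% (0.227 to 0.588) and 1.75% (1.36 to 2.23) of stromal-like barcodes had a Fabp4 UMI, and 0% (up to 1.04%) and 1.09% (0.132 to 3.87) of epithelial-like ones, which should lack it. Unthinned these were 1.57% and 6.26%, and 1.03% and 10.3%. The thinned epithelial-like shares again rest on 0 and 2 barcodes. Per UMI of the class, stromal-like barcodes were above epithelial-like ones, at 2.51 to 3.26 against 0.0445 to 0.631 CPM in DOX and 9.18 to 11.1 against 1.49 to 3.60 in DOX plus AMH. The epithelial-like barcodes were deeper, with medians of 30019 and 31153 against 14868 and 10247 UMIs, and a level per UMI is divided by that depth. The unthinned share of barcodes with Fabp4 was higher in stromal-like ones in DOX (1.57% against 1.03%) but lower in DOX plus AMH (6.26% against 10.3%). Of the stromal-like barcodes 6 and 5 had at least 10 Fabp4 UMIs, with a highest of 31 and 38. The epithelial-like highest was 1 and 4.

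Other genes of fat cell biology, 77 in 8 lists, were counted the same way. Of 75 with at least 20 UMIs, 28 had a level in DOX plus AMH that was higher by 1.3-fold or more and 10 one that was lower by as much, with a median log2 ratio of 0.15. Over all genes 28.8% were higher and 8.15% lower by that measure, with the same median of 0.15. TMM scaling gave 24 higher and 15 lower, but the shares over all genes were not counted with that scaling, so these counts have none to be set against. Without the holding barcodes 23 were higher and 13 lower, against 28.6% and 8.18% of all genes. The lists were chosen with earlier results of these libraries known.

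The counts by list stand beside the same shares over all genes, 28.8% higher and 8.15% lower. By list, the 14 measured genes of mature fat cells outside the members had 7 higher and 0 lower (5 and 2 without the holding barcodes). Adig, an adipocyte membrane protein gene, had 122 and 331 UMIs (log2 ratio 1.84), Aqp7 39 and 70 (1.25) and Trarg1, of insulin-responsive vesicles, 56 and 100 (1.24). Of the DOX plus AMH UMIs of Adig and Aqp7, 48.9% and 54.3% lay in the holding barcodes. Without those barcodes the log2 ratios were 1.03 for Adig, 0.20 (-0.53 to 0.92) for Aqp7 and 1.09 for Trarg1. With all barcodes Acvr1c (-0.32) and Thrsp (-0.13) of this list were lower, by less than 1.3-fold. Among 8 genes of fatty acid uptake 5 were higher and 1 lower (4 and 1 without the holding barcodes). The lower gene was Angptl4, at 27.2 and 16.4 CPM (log2 ratio -0.74). Cd36, a fatty acid receptor, had 1096 and 1977 UMIs (log2 ratio 1.26), 5.29% and 50.9% of them in the holding barcodes. Fabp5, the epidermal carrier, had 3219 and 10419 UMIs (log2 ratio 2.10) with 0.621% and 2.08% there, and so lay elsewhere.

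Transcription factors of fat cells had 5 of 10 higher and 0 lower (4 and 0 without the holding barcodes). Among the 5 was Pparg, the main regulator of fat cells, at 577 and 644 UMIs (log2 ratio 0.56, and 0.23 without the holding barcodes). Of its UMIs 2.60% and 22.8% lay in the holding barcodes. Of 11 lipid droplet genes 5 were higher and 1 lower (4 and 1 without the holding barcodes). Cidea, a droplet gene of brown fat and sebaceous gland, had 30 and 251 UMIs (log2 ratio 3.47), 5.18% of the latter in the holding barcodes, and Plin5, a droplet coat of oxidative tissues, had 3 and 34 UMIs (log2 ratio 3.91, 2.24 to 6.25), 2.94% of the latter there. Plin2, the droplet coat of most cells, was 47.3 and 36.2 CPM (log2 ratio -0.39). Of 14 synthesis genes 3 were higher and 1 lower (2 and 3 without the holding barcodes). The lower gene was Pck1, at 1.79 and 0.96 CPM (log2 ratio -0.90). Fasn, at 2556 and 2911 UMIs (log2 ratio 0.59), had 0.235% and 23.3% in the holding barcodes. Adipokines and receptors had 4 of 10 higher and 2 lower (4 and 3 without the holding barcodes). The leptin receptor gene Lepr was 22.5 and 39.7 CPM (log2 ratio 0.82). Rbp4 was lower, at 43.4 and 22.0 CPM (log2 ratio -0.98), as was Nnmt (log2 ratio -0.41). Of 7 measured brown fat genes 3 were higher and 2 lower (2 and 2 without the holding barcodes). Markers of fat cell progenitors had 1 of 10 higher and 3 lower: Dlk1, a preadipocyte gene, was higher (2.12 and 4.49 CPM) and Ly6a, which encodes Sca-1, lower (275 and 131 CPM, log2 ratio -1.07), with Cd55 and Cd34 at log2 ratios of -0.69 and -0.49.

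Genes most like Adipoq were sought over 12 values, the 6 classes in 2 libraries with the holding barcodes in, by Pearson's r of log2(CPM + 1) among 17512 genes. The 5 highest were Cyp2e1 (r 0.973), Plin1 (0.966), Cfd (0.942), the tight junction gene Cldn11 (0.94) and Retn (0.928). Cidec was at rank 6, Car3 at 13, Fabp4 at 50 and Scd1 at 897 with r 0.530. These values share libraries and depth, and 5 of the 6 holding barcodes with a class lie in 2 of the points, stromal-like and vascular endothelial-like barcodes of DOX plus AMH. Against all other barcodes, the 10 genes with the highest ratio of level in the 18 barcodes were Orm1, Cyp2e1, Apoc4, Wfdc21, 2610016A17Rik, Hamp, Itih4, Mrap, Adig and Aqp7. Orm1, an acute phase protein gene, had 160 UMIs inside and 26 outside, and Cyp2e1, a cytochrome P450 gene, 245 and 48. Mrap, which carries the ACTH receptor to the surface of fat and adrenal cells, had 54 and 31. Hamp, the gene of hepcidin, the liver hormone of iron, had 60 UMIs inside, all of them in the deep DOX barcode. Orm1, Cyp2e1, Apoc4, Wfdc21, Itih4, Mrap and Adig each had UMIs in 5 of the 5 deep barcodes.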

How the data were processed

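Single-cell suspensions of pooled mouse uteri were sequenced as 10x Genomics 3' v3.1 libraries, 1 each for DOX and DOX plus AMH, per the labels. The submitters' processing notes name Cell Ranger 7.0.0 and mm10, and the annotation release is not given in the sources used here. In the deposited matrices each value is a raw UMI count, and the lowest barcode total was 500 UMIs in both libraries, so emptier droplets were not analysed here. The total counts were 129530270 and 97887259 UMIs.

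CPM scales UMIs over all genes to a total of 1000000. Levels have exact Poisson intervals, shares exact Clopper-Pearson intervals, and log2 ratios an interval from the exact binomial split of the UMIs, all at 95%. A count of 0 was read as allowing up to 3 counts. No fold change was given where 1 library had 0. The calculation was checked on simulated Poisson counts. No replicates exist, so no test was made.

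The members and lists were chosen with earlier results of these data known. Kept barcodes had at least 1000 UMIs, 500 genes and at most 15% mitochondrial UMIs. A class needed 3 of its markers at 2 UMIs or more and a lead of 10 percentage points in the share of markers over the next class, a scoring chosen with the data in view. Of the kept barcodes 7070 and 6383 got a class, 284 and 349 were set aside as mixed, 429 and 333 had none, and 323 and 367 lay within 20 points of the next class. No doublet caller was run; mixed barcodes were left out of classes. Classes compared had at least 50 kept barcodes in both libraries. In each of the 6 compared classes at least 6 of the markers were at 2 UMIs in 50% or more of its barcodes. Named genes are the 8 members, genes of the companion lists, the 5 most like Adipoq (at least 100 UMIs) and the 10 leading the holding barcodes (at least 20 UMIs there). Further genes named in single barcodes and the 3 kinds of holding barcode were chosen after their values were seen. Python 3.11.15 with numpy 2.4.6, scipy 1.17.1 and pandas 2.3.3 was used, and edgeR 4.0.16 in R 4.3.3 for TMM factors only. Alternatives were stricter or no barcode filters, TMM, CPM without mitochondrial genes, holding or squamous keratin barcodes left out, thinning to 2000 UMIs, a stricter gate and other rules for holding barcodes.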

Additional observations from a re-analysis of the deposited data

Results flagged for a closer look

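Log2 ratios of opposite sign in different classes were found for 2 of the genes, with the holding barcodes left out and each interval on its own side of 0. The difference between classes was not tested, as each group is 1 library. Fabp4 was lower in DOX plus AMH in vascular endothelial-like barcodes (log2 ratio -1.34) and higher in the 5 other classes, with the highest ratio in epithelial-like barcodes (3.46, from 3 and 22 UMIs). The vascular value rests on 5 barcodes in each library, without which the levels were 19.2 and 25.2 CPM. Car3 was lower in mesothelial-like barcodes (-1.41, from 17 and 11 UMIs) and higher in stromal-like (3.60) and smooth muscle-like ones, where 7 barcodes of DOX plus AMH held 575 UMIs.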

How the results depend on the processing

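The log2 ratio of the 8 genes' summed UMIs was above 0 under each alternative: 1.87 with all barcodes, 1.87 with kept barcodes, 1.85 without mitochondrial genes, 1.72 with TMM, 2.01 without squamous keratin barcodes, 1.05 with the stricter barcode filter, 0.88 without the holding barcodes and 0.85 after thinning. Chosen after seeing the data, it was 2.33 without the highest barcode of each library and 0.67 without holding and Car3-high barcodes. The stricter filter turned Retn to -0.24 and Cfd to -0.45: it kept 2 of 4 and 6 of 14 holding barcodes, the deep DOX one included, and dropped the 3 with the most Cfd in DOX plus AMH, which had 10.1% to 13.1% mitochondrial UMIs. Without the highest barcode of each library, Cfd was 5.40, Adipoq 4.56 and Retn 4.40. The 8 genes' sum was higher in 6 of 6 classes, and in 5 of 6 without the holding barcodes. In vascular endothelial-like barcodes leaving those out gave -1.32 for the sum, -1.34 for Fabp4, -1.25 for Retn, -0.93 for Cfd and -0.84 for Car3, also without Car3-high barcodes; without the 5 Fabp4-highest as well, Cfd and Car3 were -0.16 and -0.06 but the sum 0.36, Fabp4 0.39 and Retn 0.75, each with an interval across 0, and with the stricter filter Cidec was -0.30. Holding barcodes numbered 4 and 14, against 1 and 9 with 3 of the 4 genes, 9 and 18 with 4 of all 8 and 12 and 23 at 1 UMI. Companion counts stayed within 1.5 times. No paired analysis was possible because each group is 1 library. Depth limits Adipoq, Plin1 and Cidec most, at 33 to 63 UMIs in DOX.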
